A study of Homo sapiens with 6 samples.

Results

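Cholesterol and long-chain fatty acids are both built from acetyl-CoA, and the enzymes that build them were followed here as 32 transcripts in human induced pluripotent stem cell (hiPSC) aggregates. The genes were chosen by name and role, with earlier results of these data known. They comprise 18 enzymes of sterol synthesis, 8 enzymes of fatty acid synthesis and desaturation, and 6 regulators that sense or move sterols, out of 19977 genes counted. Each of the 32 matched 1 counted gene and passed the filter on low counts, with 216 to 62152 counts per library.

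The cells were NCRM-1, a wild type hiPSC line made from CD34+ cells of cord blood by episomal reprogramming. Single cells were seeded with a ROCK inhibitor in vertical wheel bioreactors and grew as aggregates for 4 days in Essential 8 (E8) medium, and 50% of the medium was replaced on day 2. In one medium, termed PEG and HS, polyethylene glycol was added at 10 mg/ml and the sodium salt of heparin at 0.1 µg/ml. The other was E8 with neither additive (E8 control). Each medium gave 3 bulk RNA libraries, and the comparison asks how transcript levels differed between the media. The additives were given only together. According to the labels a single bioreactor appears to have been run per medium, in which case the effect of the vessel cannot be told apart from that of the medium. The p-values measure the spread between libraries that may not be independent cultures. The text on treatment in the labels mentions both additives for all 6 libraries, and here each library was placed by its own treatment entry.

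In the sterol pathway, acetyl-CoA is condensed to HMG-CoA, passed through mevalonate to farnesyl diphosphate, and joined to squalene, which is folded to lanosterol and trimmed to cholesterol. In the fatty acid pathway, citrate is split to acetyl-CoA, which is carboxylated to malonyl-CoA, assembled to palmitate, then elongated and desaturated. Both pathways are activated by the SREBP transcription factors, which the escort protein SCAP carries from the endoplasmic reticulum to the Golgi for cleavage when sterols are scarce, and which the INSIG proteins hold back when sterols are plentiful. E8 contains no albumin, which in other media carries lipids to the cells.

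Library depth was 26991279 to 36185138 counts, and the common biological coefficient of variation (the spread between replicates beyond counting error) was 3.12%. All 8 pluripotent stem cell markers examined had a level of at least 10 CPM (counts scaled to the size of each library) in every library. Their summed level was 8637 to 8827 CPM with PEG and HS, against 8262 to 8389 CPM in E8 control, with 4 of the 8 called higher and 2 lower. Called higher were NANOG (log2 fold change 0.55), L1TD1 (0.36), DPPA4 (0.30) and POU5F1 (0.23). Called lower were SOX2 (-0.59, a mean of 273 against 412 CPM), the largest change of the list, and LIN28A (-0.30). The 5 neural ectoderm markers were all called lower. Their summed level was 33.5 to 37.4 CPM with PEG and HS, against 141 to 147 CPM in E8 control, so the ranges did not overlap. The authors had already reported SOX1, OLIG3, LHX5 and OTX2 as lower in these data, so these calls are not independent of that report. OTX2 alone was at a mean of 18.6 CPM with PEG and HS, against 79.4 CPM in E8 control. Summed levels of the other marker lists were also lower in PEG and HS, at 4.30 to 4.76 against 13.1 to 13.7 CPM for trophectoderm and amnion (3 of 5 called lower), 5.47 to 5.63 against 5.97 to 7.34 CPM for mesoderm and primitive streak (1 of 5), and 2.19 to 2.64 against 2.85 to 3.54 CPM for endoderm (0 of 3 tested called by edgeR, DESeq2 or limma-voom, and 1 of 3 at an unadjusted p under 0.05 with each). No marker was at 0 in all libraries, but many were near the floor. Under 1 CPM in every library were 3 of 5 trophectoderm and amnion, 3 of 5 mesoderm and 4 of 5 endoderm markers. Not every gene of these lists was lower. MIXL1 of the mesoderm list was at 1.83 to 2.19 CPM with PEG and HS, against 1.15 to 1.72 CPM in E8 control. Its log2 fold change of 0.44 was not called, and the gene called lower in that list was TBX6 (-0.48). In bulk RNA, fewer cells of a type and less RNA per cell cannot be told apart. These marker levels moved with the medium in the same libraries as the synthesis genes, and their part in the results was not tested.

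Synthesis genes were modestly higher in PEG and HS. Of the 32 genes, 22 were called higher and 0 lower (edgeR quasi-likelihood test, Benjamini-Hochberg adjusted p under 0.05 over 16505 genes), where 25.3% of all genes tested were called, 12.2% higher and 13.1% lower. The higher calls comprised 12 of 18 sterol enzymes, 6 of 8 fatty acid enzymes and 4 of 6 regulators. At an unadjusted p under 0.05, 24 genes were higher and 0 lower by edgeR. DESeq2 called 20 higher and 0 lower, and limma-voom called 22 higher and 0 lower. The summed level of the 32 genes was 8320, 8442 and 8549 CPM in the PEG and HS libraries, against 7503, 7485 and 7500 CPM in the E8 control libraries. The ranges did not overlap, and the mean was 12.5% higher in PEG and HS.

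The size of the differences was small throughout. The log2 fold change of PEG and HS over E8 control was at most 0.32, for CYP51A1, which corresponds to a 1.24-fold difference. The median over the 32 genes was 0.13, against 0.0031 over all genes tested and 0.013 over the 10416 tested genes at least as abundant as the least abundant of the 32. In that set of abundant genes, 17% were called higher, 15.3% were called lower, and the quartiles of the log2 fold change were -0.07 and 0.09. Tested against a 1.2-fold change, 868 of all genes tested (5.26%) were called and 0 of the 32 were, with 2 of them at an unadjusted p under 0.05. The PEG and HS libraries were all above the E8 control libraries for 24 of the 32 genes and all below them for 0, where 19.5% of all genes tested were all above and 19.8% all below (24.9% and 21.2% of the abundant genes). The log2 fold change was above 0 for 26 of the 32, against 50.9% of all genes tested and 54.6% of the abundant genes.

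**Figure D1:**
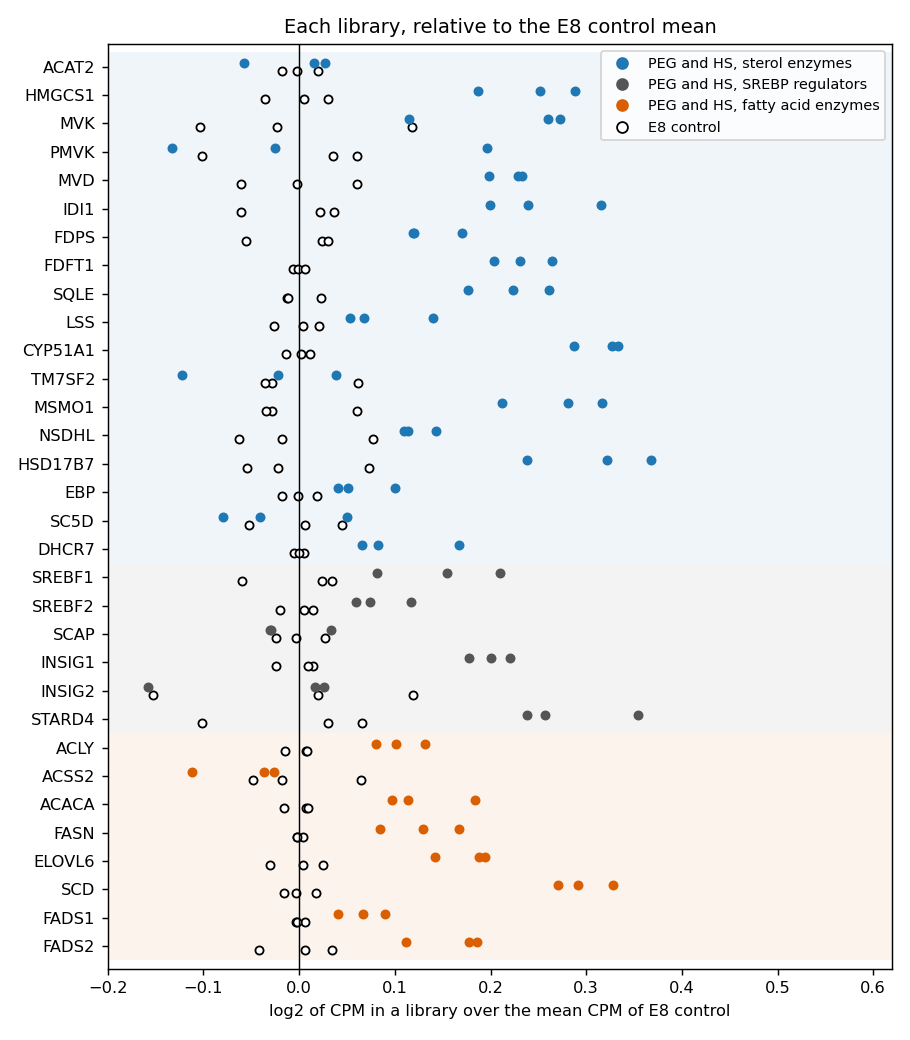
Each row is 1 gene, and each point is 1 library, drawn as the log2 of its CPM over the mean CPM of the 3 E8 control libraries (open points, E8 control; filled points, PEG and HS, coloured by group of genes). All 3 filled points lie to the right of all 3 open points for 24 of the 32 genes, with SCD and CYP51A1 widely separated and ACAT2, SC5D and SCAP intermixed.

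The mevalonate steps held 7 of the genes, of which 5 rose. HMGCS1 (chromosome 5, 43287470 to 43313512, GRCh38), which makes HMG-CoA, was at 447, 427 and 458 CPM with PEG and HS, against 383, 366 and 376 CPM in E8 control. Each PEG and HS library exceeded each E8 control library, and the log2 fold change was 0.24 ± 0.03 (SE, n = 3 per medium), with an edgeR adjusted p of 2.17e-05. IDI1, which isomerizes the first isoprenoid unit, was at 89.6, 82.7 and 85.0 CPM against 73.2, 69.1 and 73.9 CPM, a log2 fold change of 0.25 ± 0.04 with an edgeR adjusted p of 1.60e-04. MVD, which decarboxylates diphosphomevalonate to give that unit, was at 64.2, 64.0 and 62.7 CPM against 54.5, 56.9 and 52.4 CPM, a log2 fold change of 0.22 ± 0.04. Neither gene's libraries overlapped between media. FDPS, which joins isoprenoid units to farnesyl diphosphate, rose by less, with a log2 fold change of 0.14 ± 0.03 and 177.3 to 184 CPM against 157 to 167 CPM.

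By CPM, which is not scaled for gene length, the kinases between mevalonate and its diphosphate were the least abundant genes of this segment. Per kilobase of exon sequence in E8 control, MVD (11.6 CPM per kb) lay below PMVK (16.3 CPM per kb). MVK, mevalonate kinase, was at 19.3, 17.3 and 19.1 CPM with PEG and HS, against 17.3, 15.7 and 14.9 CPM in E8 control. It was called higher (log2 fold change 0.23 ± 0.07, edgeR adjusted p = 0.0247), although the lowest PEG and HS library lay just under the highest E8 control library. Its adjusted p rose to between 0.0654 and 0.114 when PEG and HS replicate 1 or 3 or E8 control replicate 2 or 3 was left out, and to 0.0531 with DESeq2. PMVK, phosphomevalonate kinase, was at 14.9, 16.1 and 18.7 CPM against 16.8, 17.1 and 15.2 CPM. Its libraries were intermixed, and its log2 fold change of 0.02 had a 95% interval from -0.15 to 0.19. ACAT2, which starts the route by condensing acetyl-CoA, was at 125, 118 and 124 CPM against 124, 122 and 121 CPM. The interval of its log2 fold change, -0.07 to 0.06, lay below that of HMGCS1, 0.18 to 0.31.

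The steps from squalene to cholesterol held 11 of the genes, of which 7 rose. FDFT1, squalene synthase, was at 370, 377 and 386 CPM with PEG and HS, against 320, 321 and 323 CPM in E8 control. The E8 control libraries spanned less than 3 CPM, and the log2 fold change was 0.23 ± 0.03 with an edgeR adjusted p of 7.13e-06. SQLE, squalene epoxidase, a rate-limiting enzyme of the pathway, was at 189, 183 and 194 CPM against 165, 161 and 161 CPM, a log2 fold change of 0.22 ± 0.03 with an edgeR adjusted p of 4.52e-05. LSS, which cyclizes the epoxide to lanosterol, showed a smaller difference, at 167, 169 and 177.7 CPM against 164, 162 and 158 CPM. Its call was marginal (log2 fold change 0.09 ± 0.03, edgeR adjusted p = 0.0465). The call of LSS was lost, at adjusted p values of 0.0516 to 0.19, with RLE or upper quartile normalization, with DESeq2, and without any 1 library other than PEG and HS replicate 1.

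Of 4 enzymes that remove the methyl groups of lanosterol, CYP51A1, HSD17B7 and MSMO1 rose and NSDHL was not called. CYP51A1 (chromosome 7, 92084987 to 92134803), the lanosterol demethylase, was at 124, 120 and 124 CPM with PEG and HS, against 97.6, 98.7 and 99.3 CPM in E8 control. The media were well apart, and its log2 fold change of 0.32 ± 0.03 (edgeR adjusted p = 1.03e-06) was the largest of the 32 in the main fit. With the trends of GC content and length removed, SCD (0.2824) lay just above CYP51A1 (0.2795). HSD17B7 (chromosome 1, 162790702 to 162812823), a ketosteroid reductase of the demethylation complex, was at 27.3, 24.99 and 26.5 CPM against 20.9, 20.4 and 22.3 CPM, a log2 fold change of 0.31 ± 0.05 with an edgeR adjusted p of 6.43e-04. MSMO1, the methylsterol oxidase of the same complex, was at 121, 115 and 124 CPM against 97.4, 97.0 and 104 CPM, a log2 fold change of 0.27 ± 0.04. Its edgeR adjusted p was 4.71e-05. NSDHL, the decarboxylating dehydrogenase that works with MSMO1 and HSD17B7, was at 30.96, 30.9 and 31.6 CPM against 27.4, 28.3 and 30.2 CPM. Its media did not overlap, but its log2 fold change of 0.12 ± 0.05 did not pass the test (edgeR adjusted p = 0.0856).

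Among the remaining late enzymes, only DHCR7 was called. DHCR7, which reduces the last ring double bond of the intermediate that is also the precursor of vitamin D, was at 151, 162 and 153 CPM with PEG and HS, against 144, 145 and 145 CPM in E8 control. The log2 fold change was 0.10 ± 0.03 (edgeR adjusted p = 0.0221), and the adjusted p was 0.0539 to 0.0973 without PEG and HS replicate 2 or without any 1 of the E8 control libraries. EBP, the sterol isomerase, was at 51.5, 51.1 and 53.2 CPM against 49.0, 50.3 and 49.6 CPM. Its libraries were apart, with a log2 fold change of 0.06 and an interval from -0.01 to 0.14. SC5D, the sterol desaturase that precedes DHCR7, and TM7SF2, a sterol reductase, had intermixed libraries and log2 fold changes of -0.02 (interval -0.10 to 0.06) and -0.03 (interval -0.14 to 0.07). With the trends of GC content and length removed, SC5D was called lower (log2 fold change -0.07, edgeR adjusted p = 0.0401).

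**Figure D2:**
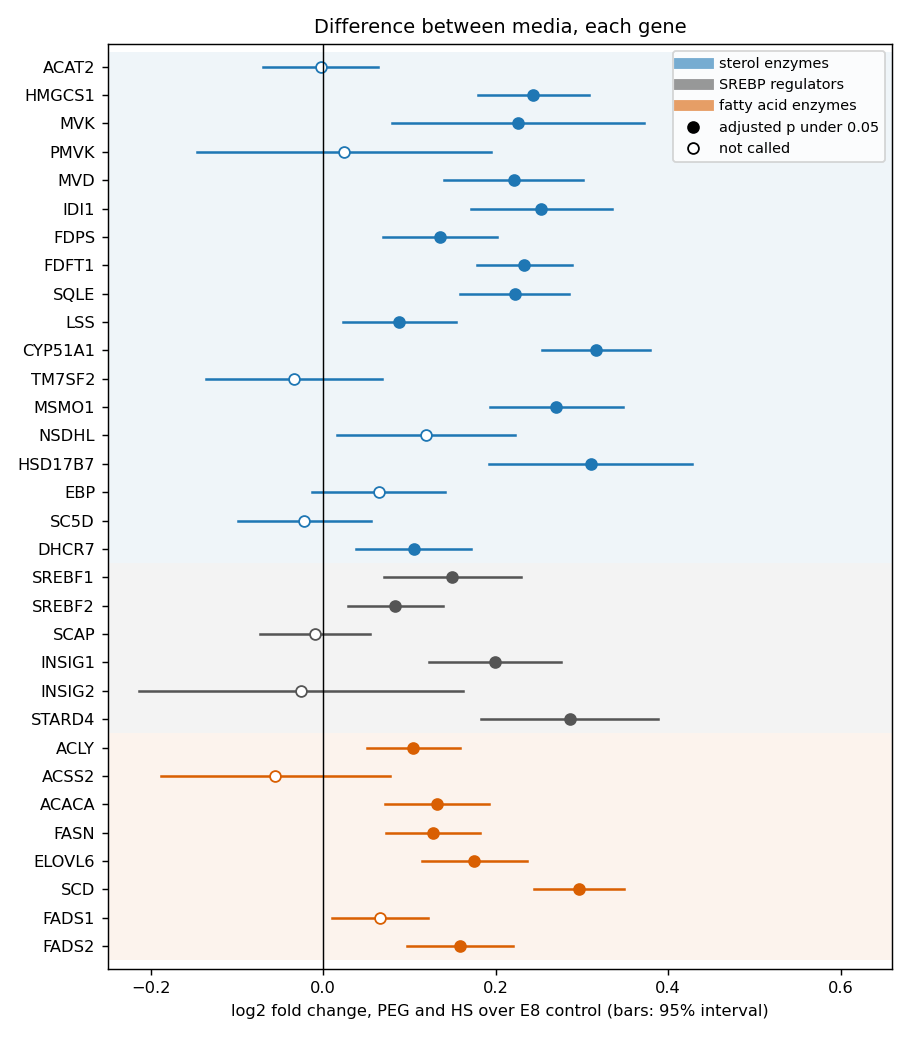
The log2 fold change of PEG and HS over E8 control is drawn for each gene with its 95% interval from edgeR, with sterol enzymes in pathway order at the top, regulators in the middle and fatty acid enzymes at the bottom. Filled points are the 22 genes called, all to the right of 0, and open points are the 10 that were not, between -0.06 (ACSS2) and 0.12 (NSDHL).

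Some sequence of these genes also occurs in transcripts of other genes, and how the authors counted such reads is not given in the sources used here. Of the 31-base words of CYP51A1 transcripts, 68.7% also occur elsewhere, chiefly in a readthrough gene on the same strand, which was at 0 to 0.18 CPM per library. EBP shares 33.2% with a similar overlapping gene at 0.09 to 0.44 CPM. Adding the counts of these partners changed neither call. HSD17B7 shares 22.6% of its words, mostly with the pseudogene HSD17B7P2, SCD 12.9% and FDPS 10.9%, so the values of these genes carry that uncertainty. On the opposite strand, a long noncoding RNA overlaps 37.7% of the exon bases of HMGCS1, RUSC1-AS1 18.6% of FDPS, TCP1 17.2% of ACAT2 and IDI2-AS1 15% of IDI1. The libraries were stranded, but whether the counting used strand is not given in the sources used here.

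Among the regulators, the SREBP genes, INSIG1 and STARD4 rose, and SCAP and INSIG2 were not called. INSIG1 (chromosome 7, 155297776 to 155310235), which retains SCAP in the endoplasmic reticulum and is itself a target of the SREBPs, was at 54.4, 53.5 and 55.1 CPM with PEG and HS, against 46.5, 47.8 and 47.6 CPM in E8 control. Replicates of either medium lay within 2 CPM of each other, and the log2 fold change was 0.20 ± 0.04 with an edgeR adjusted p of 7.08e-04. INSIG2, the paralog of INSIG1, was at 8.63, 7.64 and 8.69 CPM against 9.27, 8.65 and 7.68 CPM. It was the least abundant of the 32 genes by CPM, its libraries were intermixed, and its log2 fold change of -0.03 had a wide interval of -0.21 to 0.16, which overlaps that of INSIG1 (0.12 to 0.28).

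STARD4, a carrier of cholesterol between membranes and the one regulator that is not part of the SREBP machinery, was at 54.4, 50.8 and 50.1 CPM against 44.5, 39.6 and 43.4 CPM. It had the largest difference among the regulators, with a log2 fold change of 0.29 ± 0.05 and an edgeR adjusted p of 4.03e-04. SREBF1, which encodes SREBP-1, was at 126, 130 and 119 CPM against 115, 116 and 108 CPM, a log2 fold change of 0.15 ± 0.04 with an edgeR adjusted p of 7.91e-03. SREBF2 (chromosome 22, 41833105 to 41907306), which encodes SREBP-2, was at 483, 503 and 488 CPM against 468, 465 and 457 CPM. Its libraries were apart but close, with a log2 fold change of 0.08 ± 0.03 (edgeR adjusted p = 0.0269), and its adjusted p was 0.0575 to 0.104 with upper quartile normalization and without PEG and HS replicate 2 or any 1 of the E8 control libraries. SCAP, at 142, 149 and 142 CPM against 145, 148 and 143 CPM, was intermixed between media, with a log2 fold change of -0.0091 and an interval from -0.07 to 0.05.

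The fatty acid enzymes included the most abundant of the 32 transcripts. SCD (chromosome 10, 100347233 to 100364826), the stearoyl-CoA desaturase that makes monounsaturated fatty acids, was at 1764, 1790 and 1837 CPM with PEG and HS, against 1460, 1447 and 1481 CPM in E8 control. The media were far apart next to the spread of replicates, and the log2 fold change of 0.30 ± 0.02 had the lowest p of the 32 (edgeR adjusted p = 2.61e-07). FASN (chromosome 17, 82078338 to 82098294), the synthase that assembles palmitate, was at 1446, 1531 and 1492 CPM against 1362, 1368 and 1362 CPM. Its log2 fold change was 0.13 ± 0.03 with an edgeR adjusted p of 1.70e-03. The interval for SCD, 0.24 to 0.35, lay above that for FASN, 0.07 to 0.18.

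Enzymes that supply FASN rose by similar small amounts or were not called. ACLY, which splits citrate to cytosolic acetyl-CoA, was at 479, 487 and 496 CPM against 449, 456 and 456 CPM, a log2 fold change of 0.10 ± 0.03. ACACA, the acetyl-CoA carboxylase, was at 354, 358 and 376 CPM against 332, 327 and 333 CPM, a log2 fold change of 0.13 ± 0.03. The libraries of both were apart, with edgeR adjusted p values of 6.38e-03 for ACLY and 2.72e-03 for ACACA. ACSS2, which makes acetyl-CoA from acetate, was at 13.9, 13.1 and 13.8 CPM against 14.01, 14.8 and 13.7 CPM. It was intermixed and had the lowest log2 fold change of the 32, -0.06, with an interval from -0.19 to 0.08.

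Downstream of palmitate, ELOVL6, which elongates it, was at 188, 181.4 and 187 CPM against 165, 161 and 167 CPM, a log2 fold change of 0.18 ± 0.03 with an edgeR adjusted p of 3.07e-04. FADS2 and FADS1 are neighbouring genes on chromosome 11 that encode the desaturases of polyunsaturated fatty acid synthesis. FADS2 was at 581, 611 and 608 CPM against 540, 551 and 522 CPM, and rose with a log2 fold change of 0.16 ± 0.03 (edgeR adjusted p = 7.77e-04). FADS1 was at 252, 247 and 256 CPM against 240, 241 and 240 CPM. Its libraries were apart, but its log2 fold change of 0.07 ± 0.03 did not pass the test (edgeR adjusted p = 0.0781), except with scaling by library size alone, where the adjusted p was 0.0397. The intervals of the pair overlapped, at 0.10 to 0.22 and 0.01 to 0.12.

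Side by side, the median log2 fold change was 0.18 over the 18 sterol enzymes, 0.13 over the 8 fatty acid enzymes and 0.12 over the 6 regulators. The difference between the groups was not tested. Within the sterol pathway, the median was 0.22 over the 7 mevalonate genes and 0.12 over the 11 genes from squalene onwards. In summed level the order was another one. The sterol enzymes summed to 2374 ± 45.5 CPM with PEG and HS, against 2109 ± 12.4 CPM in E8 control (SD, n = 3), which was 12.6% higher, and the fatty acid enzymes to 5187 ± 97.4 and 4567 ± 6.61 CPM, which was 13.6% higher. SCD and FASN alone made up 61.9% of the fatty acid sum in E8 control. Without that pair, the other 6 fatty acid enzymes summed to 1901 ± 34.8 and 1741 ± 9.48 CPM, 9.2% higher. The regulators summed to 875 ± 16.3 and 820 ± 11.5 CPM, 6.73% higher.

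Within each medium the 3 libraries were similar. Relative to the E8 control means, the median log2 over the 32 genes was 0.11, 0.13 and 0.17 in PEG and HS replicates 1 to 3, and lay between -0.0017 and 0.0043 in the E8 control libraries. The rank of the PEG and HS libraries depended on the genes. Replicate 1 had the highest median of the 3 for the mevalonate genes (0.23) and replicate 2 for the genes from squalene onwards (0.17), while replicate 3 was highest for the fatty acid enzymes (0.15). The median coefficient of variation of a gene was 3.03% with PEG and HS, against 2.1% in E8 control.

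**Figure D3:**
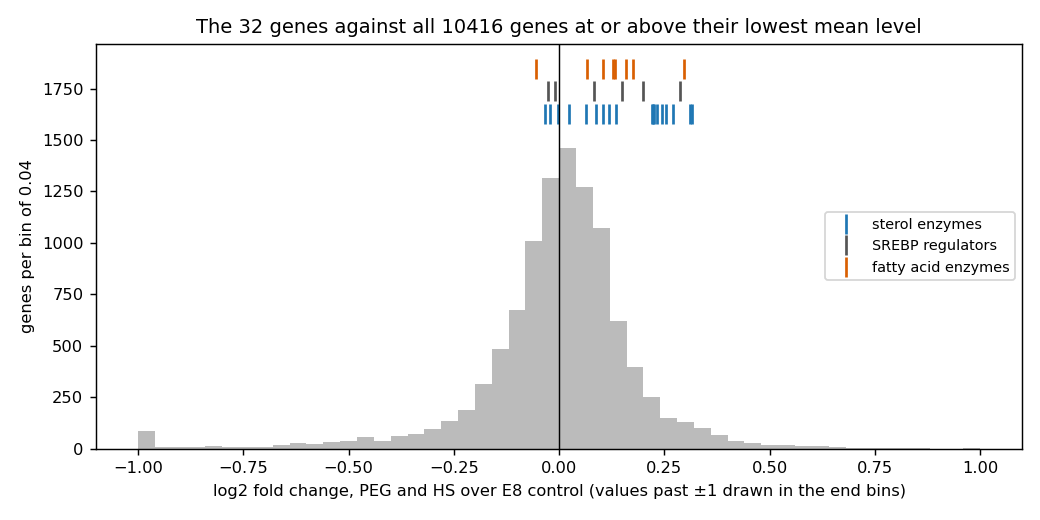
The grey histogram counts the 10416 tested genes at or above the lowest mean level of the 32, by log2 fold change in bins of 0.04, and the coloured ticks above it mark the 18 sterol enzymes, 6 regulators and 8 fatty acid enzymes. Ticks reach from -0.06 to 0.32, against a median of 0.013 for the histogram, whose values past 1 or -1 are drawn in the end bins.

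Levels were compared between genes as CPM per kilobase of exon sequence (the union of exons in GENCODE 44), and in E8 control they spanned a 157-fold range. SCD was highest at 279 CPM per kb, followed by FASN at 146, ACLY at 87.1 and FDFT1 at 63.3, and each of these was apart from the next in all 3 libraries. SREBF2 (57.5 CPM per kb) and HMGCS1 (56.6 CPM per kb) did not differ beyond the spread of their libraries. FADS2, ACAT2, FDPS, SQLE, MSMO1, EBP and ACACA followed without overlap, from 50.9 down to 25.4 CPM per kb. CYP51A1, FADS1, SCAP, ELOVL6 and LSS lay between 23.6 and 22.3 CPM per kb, each overlapping its neighbour. The lowest were STARD4 at 7.48, HSD17B7 at 4.43, ACSS2 at 2.70, INSIG2 at 2.16 and MVK at 1.77 CPM per kb. Of the 31 neighbouring pairs in this order, 9 overlapped. Per kilobase, 14 of the 32 lay above the 90th percentile of all genes tested, and the median gene lay at percentile 89.5.

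**Figure D4:**
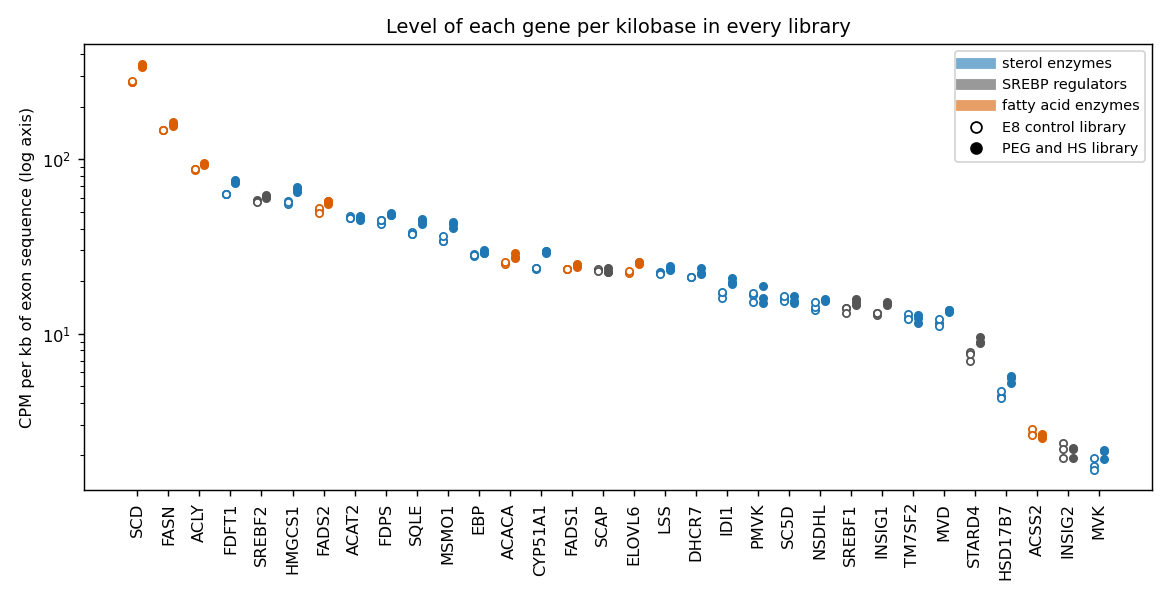
CPM per kb of exon sequence is drawn on a log axis for each gene and library, in the order of E8 control levels (open points, E8 control; filled points, PEG and HS). The range runs from SCD, at 279 CPM per kb in E8 control and 343 CPM per kb in PEG and HS, down to MVK at 1.77 and 2.06 CPM per kb, and the step between media is small next to the differences between genes.

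Promoters were examined because the SREBPs bind short sites near gene starts. The list was drawn from pathways activated by the SREBPs, so more matches than among all tested genes would not reflect the medium. RefSeq promoter sequences (GRCh38.p14, the 250 bases before each annotated start, of which a gene may have several) were matched by symbol for 28 of the 32 genes. SQLE, FASN, FDFT1 and ACAT2 were not matched. A loose form of the sterol regulatory element bound by the SREBPs, TCACNCNAC, was found on either strand in 5 of 28 genes (17.9%), namely FDPS, HSD17B7, SREBF2, ACSS2 and FADS2. Of the 12918 tested genes with a promoter, 2.72% held it. These 5 sites are shown with 10 flanking bases on each side, and capitals mark the match. All 29 bases shown for FADS2 and for SREBF2 lie in annotated exons. The sites of FADS2 and ACSS2 lie inside the annotated spans of these genes.
SREBF2, chr22:41832962-41832990, plus strand: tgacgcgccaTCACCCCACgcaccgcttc
HSD17B7, chr1:162790594-162790622, plus strand: tcggcctatcTCACCCGACgccgtctccg
FDPS, chr1:155308716-155308744, plus strand: tgcgccatgcTCACACGACggccagcagc
FADS2, chr11:61815973-61816001, plus strand: cctccagtctTCACACGACgcaggggtcc
ACSS2, chr20:34876364-34876392, plus strand: ccttctgcttTCACTCGACggcgtcactc
Of these 5 genes, HSD17B7, FADS2, FDPS and SREBF2 were called higher, with log2 fold changes of 0.31, 0.16, 0.14 and 0.08, and ACSS2 was not called. Of the 19 called genes with a promoter, 4 held a match, and of the 9 not called, 1 did.

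The CCAAT box, bound by NF-Y, a partner of the SREBPs, was found on either strand in 20 of 28 genes (71.4%), against 41% of the tested genes. The GC box GGGCGG, bound by Sp1, was found in 27 of 28 (96.4%), against 71.1%. The CCAAT box was held by 15 of the 19 called genes and 5 of the 9 not called. The GC box was held by 19 of the 19 called genes and 8 of the 9 not called. The promoters that follow belong to genes with log2 fold changes of 0.30 (SCD) and 0.31 (HSD17B7), among the largest of the 32, and capitals mark CCAAT on either strand and the loose element. The promoter of SCD holds 2 CCAAT boxes and no match to the loose element, and that of HSD17B7 holds 1 of each.
SCD, chr10:100346983-100347232, plus strand: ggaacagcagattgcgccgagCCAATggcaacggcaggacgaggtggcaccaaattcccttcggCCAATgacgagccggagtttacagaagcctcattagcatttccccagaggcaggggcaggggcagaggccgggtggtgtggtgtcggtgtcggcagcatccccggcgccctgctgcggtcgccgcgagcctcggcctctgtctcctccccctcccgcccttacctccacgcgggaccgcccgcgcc
HSD17B7, chr1:162790452-162790701, plus strand: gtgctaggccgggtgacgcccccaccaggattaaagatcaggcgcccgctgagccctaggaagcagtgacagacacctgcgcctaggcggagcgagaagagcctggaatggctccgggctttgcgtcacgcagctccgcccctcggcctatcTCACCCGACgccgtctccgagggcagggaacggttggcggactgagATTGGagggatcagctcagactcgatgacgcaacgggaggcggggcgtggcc
A match describes letters in the window, and binding was not measured.

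Genes around the synthesis pathways were taken as 6 lists with 88 genes, of which 10 were called higher, 11 lower and 67 neither. These counts were near the shares over all genes tested, 12.2% called higher and 13.1% lower. Among the abundant genes the shares were 17% and 15.3%. The counts of single lists are small and were not tested against these shares. List medians lay between -0.0072 and 0.04. In the isoprenoid branch, which leaves the mevalonate pathway for ubiquinone, dolichol and protein prenylation, 2 of 13 genes were called higher and 1 lower. PDSS2, a subunit of the synthase of the ubiquinone side chain, was at 24.1 to 24.9 CPM against 21.1 to 21.8 CPM (log2 fold change 0.18), and DHDDS, a subunit of the dolichol synthase, was at 34.6 to 36.0 CPM against 37.7 to 39.6 CPM (log2 fold change -0.14). Of 10 genes that cleave the SREBPs or degrade sterol-regulated proteins, 1 was called, the ubiquitin-conjugating enzyme UBE2G2, with a log2 fold change of 0.13 and overlapping libraries (137 to 150 CPM against 124 to 138 CPM).

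In the list of sterol uptake, transport, storage and efflux, 3 of 16 genes were called higher and 4 lower. LRP8, a lipoprotein receptor, was at 97.2, 99.4 and 88.6 CPM with PEG and HS, against 81.4, 77.6 and 81.0 CPM in E8 control, a log2 fold change of 0.25 ± 0.04. LRP2, the endocytic receptor megalin, was at 2.16, 1.73 and 2.22 CPM against 4.34, 5.29 and 5.63 CPM, a log2 fold change of -1.32 ± 0.14. Both were apart between media, with edgeR adjusted p values of 3.79e-04 and 6.32e-06. Also called lower, and named after their values were seen because their changes exceed those of any synthesis gene, were SOAT1, which esterifies cholesterol for storage, and ABCA1, which exports it. SOAT1 was at 5.75 to 6.19 CPM against 13.9 to 14.6 CPM (log2 fold change -1.25 ± 0.07), and ABCA1 at 49.3 to 50.9 CPM against 77.1 to 82.3 CPM (log2 fold change -0.67 ± 0.04).

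On the fatty acid side, 2 of 19 genes of elongation, desaturation and NADPH supply were called higher and 2 lower. IDH1, a cytosolic source of NADPH, was at 413 to 418 CPM against 358 to 363 CPM (log2 fold change 0.20), and ELOVL1, which elongates very long chains, at 15.7 to 16.4 CPM against 17.8 to 19.9 CPM (log2 fold change -0.24). In glycerolipid synthesis, 1 of 13 was called higher and 3 lower. GPAM, the first acyltransferase of the route, was at 50.8 to 52.9 CPM against 43.95 to 46.6 CPM (log2 fold change 0.20), and DGAT2, which makes triglyceride, at 1.80 to 2.22 CPM against 5.38 to 6.74 CPM (log2 fold change -1.49). In fatty acid oxidation, 1 of 17 was called higher and 1 lower. CPT1A, which brings fatty acids into mitochondria for oxidation, was at 55.8, 54.7 and 54.1 CPM against 31.2, 30.6 and 29.6 CPM, a log2 fold change of 0.85 ± 0.04 with an edgeR adjusted p of 4.00e-10. ETFA, an electron carrier of oxidation, was at 48.8 to 54.1 CPM against 55.0 to 57.8 CPM (log2 fold change -0.13).

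**Figure D5:**
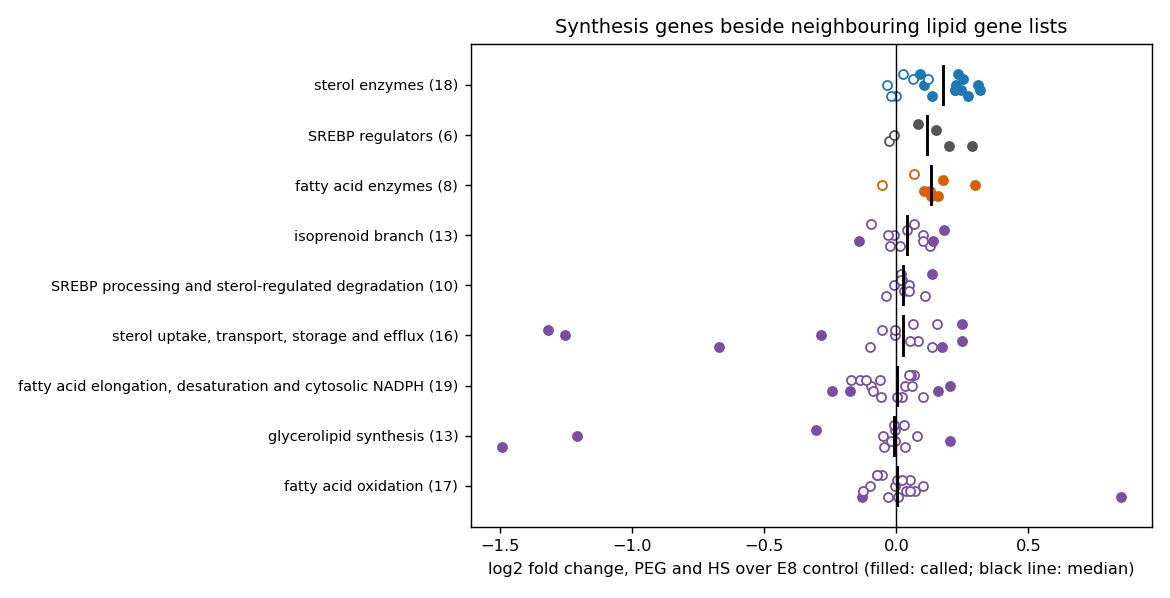
Each point is 1 gene, placed by its log2 fold change of PEG and HS over E8 control, with filled points for genes called and a black line at the median of each list (number of genes in brackets). The 3 groups of synthesis genes have medians of 0.18, 0.12 and 0.13, the 6 lists around them have medians between -0.0072 and 0.04, and the far points are DGAT2 (-1.49), LRP2 (-1.32), SOAT1 (-1.25) and PLPP1 (-1.21, a lipid phosphatase named after its value was seen) on the left and CPT1A (0.85) on the right.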

How the data were processed

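Polyadenylated RNA of 6 libraries was sequenced after stranded preparation. The authors trimmed reads with Trim Galore 0.6.7, mapped them to GRCh38 with STAR 2.6.1 (submitters' processing notes) and deposited raw counts per gene and library. Not given in the sources used here are the program that counted the reads, whether it used strand, its annotation and how reads with several matches were treated. Symbols came from GENCODE 44 (19916 of 19977 identifiers). The members and all lists were chosen with earlier results of these data known. The genes named are all 32 members and, per neighbouring list, the called gene with the largest change in each direction at 1 CPM or more. SOAT1, ABCA1 and PLPP1 fall outside this rule and were named after their values were seen.

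Genes whose counts summed to 10 or more were tested with edgeR 4.0.16 (TMM factors 0.994 to 1.006, glmQLFit, glmQLFTest, R 4.3.3, no covariate), with Benjamini-Hochberg adjustment over all genes tested and calls at an adjusted p under 0.05. CPM uses TMM-scaled library sizes. The SE was obtained from the size of the log2 fold change and the F statistic, and 95% intervals use the moderated degrees of freedom. Counting intervals were not needed at this depth, 26991279 to 36185138 counts. Alternatives were DESeq2 1.42.0, limma-voom (limma 3.58.1), 3 scalings, 2 filters, a replicate block, leaving out each library, a test against a 1.2-fold change and, chosen after seeing the data, overlapping genes summed and GC and length trends removed. On simulated counts for this comparison (16378 genes, 200 changed), edgeR recovered 92% of changes of 0.4 and 100% of changes of 1 on the log2 scale, and 9.43% of its calls were false. Both sizes exceed every log2 fold change among the 32 genes, at most 0.32, so recovery at the sizes seen here was not measured. The simulated libraries were independent, which the real ones may not be. No pair of replicates was alike within sampling noise, with chi-square values of 2.61 to 3.6 per degree of freedom.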

Additional observations from a re-analysis of the deposited data

How the results depend on the processing

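Under the 16 alternatives that refit each gene, 18 of the 22 calls were made under every one, and no called gene changed direction. LSS, DHCR7, SREBF2 and MVK lost their calls under some, as given with each. Only the test against a 1.2-fold change moved a count by more than 1.5 times, to 868 genes in all and to 0 sterol, 0 fatty acid and 0 regulator genes. Leaving out each library gave 3114 to 3674 calls over all genes, 9 to 11 of the sterol enzymes against 12 with all libraries (fewest without Control replicate 2), 6 of the fatty acid enzymes and 3 to 4 of the regulators, with a median log2 fold change of 0.16 to 0.18 for the sterol and 0.12 to 0.15 for the fatty acid enzymes. Upper quartile scaling split all calls into 1795 higher and 2354 lower, against 2016 and 2157. DESeq2 called 10 sterol enzymes, and removing GC and length trends 14, with EBP higher (adjusted p = 0.0393) and SC5D lower added. Without Control replicate 3, NSDHL was called (adjusted p = 0.0334). The 14 changes of direction were all in 6 genes that were not called and lay near 0. Leaving out each library gave log2 fold changes from -0.0191 to 0.0216 for ACAT2, -0.0775 to 0.0970 for PMVK, -0.0735 to 0.0092 for TM7SF2, -0.0600 to 0.0048 for SC5D, -0.1006 to 0.0302 for INSIG2 and -0.0301 to 0.0025 for SCAP. ACAT2 was also at 0.0059 by library size and SCAP at 0.0050 with trends removed. The cause of these shifts was not tested. Deviations of same-numbered libraries from their medium's mean correlated at 0.0229, 0.0394 and 0.0459 across 13557 genes. For libraries of different numbers the correlations lay between -0.0883 and 0.0457. All were weak, and no pairing was used in the main fit. With the replicate number as a block, 4444 genes were called, against 4173 in the main fit, with 12 sterol, 6 fatty acid and 4 regulator genes.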
